A study of Mus musculus with 36 samples.

Results

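Ribosome biogenesis genes encode the nucleolar machinery that makes ribosomes, and 42 of them, with Myc as their best known regulator, were followed in mouse embryonic fibroblasts with and without PKBa. They were found by the gene symbol that the array platform gives to each probe set. A probe set with 1 gene symbol was available for 40 of the 42, on 72 of the 20380 such probe sets, so the values below cover 40 of 12393 genes. Dkc1 was on no probe set under its symbol, and Mrto4 only on one shared with 2 pseudogenes, so both were left out. All 40 genes passed the filter on low signal.

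The cells were fibroblasts grown from 13.5-day embryos of intercrosses between mice heterozygous for the PKBa deletion, either wild type or PKBa-/-, at passages 15 to 20. PKBa is the protein kinase encoded by Akt1. RNA was hybridised to 36 Affymetrix arrays at times labelled 0, 2, 6, 24 and 48, with no unit. Time 2 was covered in each genotype by replicates 1 and 2, and each other time by 4 replicates. The title of the series says that the cells received DMEM (a standard culture medium), whereas the protocol also describes a medium that induces adipocytes, and the sample labels do not say which was given. How many embryos or cell isolates stand behind each genotype is not stated, so a genotype may be 1 isolate, and isolate and genotype cannot be told apart.

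A ribosome starts in the nucleolus, where RNA polymerase I copies the ribosomal DNA into a long precursor RNA. Small nucleolar ribonucleoproteins (snoRNPs) modify that precursor, and assembly factors then cut it and fold it with ribosomal proteins into a small and a large subunit, which leave for the cytoplasm. Growth factors and serum are known to raise this activity in fibroblasts, in good part through the transcription factor Myc, which binds E-boxes (CACGTG and close variants) near the start sites of many of these genes.

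Promoters of the members were searched for E-box motifs. RefSeq windows of GRCm38.p6, 250 bases before to 50 bases after a start site, were matched by symbol for 33 of the 40 genes. The canonical E-box CACGTG, which is its own reverse complement, was in 7 of these 33 genes (21.2%), against 8.09% of all 27025 genes in the table and 12.4% of the 6056 of them tested here. The variant CACGCG, or CGCGTG on the other strand, was in 10 of 33 (30.3%), against 10.5% of all genes and 21.3% of the tested ones. Most matched members thus held no canonical E-box in this window, and a match is a description of letters, not of binding. The 6 windows below run 5′ to 3′ along the gene with either motif in capitals, and belong to members with differing courses. Nop2 rose in both genotypes, and Ltv1 and Utp20 fell in wild type. Imp4 was higher in PKBa-/- at times 0 and 6 on its brightest probe set. Rrp1b and Nolc1 rose most at time 6 in PKBa-/-.
Nop2, chr6:125131633-125131932, plus strand: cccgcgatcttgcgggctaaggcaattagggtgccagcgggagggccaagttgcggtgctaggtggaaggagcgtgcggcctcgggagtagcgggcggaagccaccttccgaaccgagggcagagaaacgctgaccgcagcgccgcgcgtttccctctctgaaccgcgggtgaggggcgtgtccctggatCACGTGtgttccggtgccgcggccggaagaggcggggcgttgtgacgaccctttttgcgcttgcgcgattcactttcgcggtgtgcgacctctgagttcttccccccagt
Ltv1, chr10:13193088-13193387, minus strand: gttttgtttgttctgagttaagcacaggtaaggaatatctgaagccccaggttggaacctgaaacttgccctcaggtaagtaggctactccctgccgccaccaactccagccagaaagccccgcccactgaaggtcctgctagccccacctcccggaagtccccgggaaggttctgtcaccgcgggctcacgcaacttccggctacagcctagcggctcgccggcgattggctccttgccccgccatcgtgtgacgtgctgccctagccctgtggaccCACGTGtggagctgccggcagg
Utp20, chr10:88826765-88827064, minus strand: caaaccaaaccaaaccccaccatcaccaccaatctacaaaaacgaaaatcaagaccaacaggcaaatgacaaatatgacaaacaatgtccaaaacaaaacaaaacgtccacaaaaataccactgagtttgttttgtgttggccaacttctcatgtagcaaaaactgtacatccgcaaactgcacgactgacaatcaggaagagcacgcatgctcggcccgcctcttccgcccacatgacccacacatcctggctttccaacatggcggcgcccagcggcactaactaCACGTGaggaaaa
Imp4, chr1:34439579-34439878, plus strand: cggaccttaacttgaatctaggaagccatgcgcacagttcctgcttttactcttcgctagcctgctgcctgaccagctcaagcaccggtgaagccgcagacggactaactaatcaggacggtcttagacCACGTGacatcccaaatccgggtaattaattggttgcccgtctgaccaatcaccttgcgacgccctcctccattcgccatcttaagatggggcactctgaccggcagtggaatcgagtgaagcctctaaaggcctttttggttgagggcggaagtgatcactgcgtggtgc
Nolc1, chr19:46075597-46075896, plus strand: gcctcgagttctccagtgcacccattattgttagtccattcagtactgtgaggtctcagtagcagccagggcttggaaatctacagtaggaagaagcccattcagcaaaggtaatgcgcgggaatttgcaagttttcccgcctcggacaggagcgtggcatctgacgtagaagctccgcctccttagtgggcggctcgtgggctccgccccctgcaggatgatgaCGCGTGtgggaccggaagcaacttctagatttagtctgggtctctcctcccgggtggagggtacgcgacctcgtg
Rrp1b, chr17:32035912-32036211, plus strand: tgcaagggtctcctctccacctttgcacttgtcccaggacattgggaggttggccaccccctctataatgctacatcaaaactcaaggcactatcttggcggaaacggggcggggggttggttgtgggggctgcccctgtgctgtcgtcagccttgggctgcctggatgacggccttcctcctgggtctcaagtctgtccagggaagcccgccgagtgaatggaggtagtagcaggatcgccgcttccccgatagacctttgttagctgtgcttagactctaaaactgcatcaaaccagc
Relative to the start site the E-box began at -60 in Nop2, -121 in Imp4, 28 in Ltv1 and 37 in Utp20. Nolc1 held only the variant. Rrp1b, the member with the largest rise at time 6 in PKBa-/- on its brightest probe set, held neither.

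Signals below are the deposited linear values, and differences are log2(signal + 32) ± SE, on the brightest probe set of a gene. Array medians lay between 134 and 145. The arrays of replicates 1 and 2, and likewise those of replicates 3 and 4, were closer to each other (mean r = 0.993) than to the other pair (0.969), so each pair was averaged and the test ran on 18 pair means, 2 for a genotype and time but 1 at time 2. A gene passed at an adjusted p under 0.05. Nothing in the labels says that replicates came from separate cultures, and p-values then measure only the spread between these samples, which may be technical. Akt1, the targeted gene, gave 843 to 1395 in wild type arrays and 43.8 to 103 in PKBa-/- arrays, with no overlap. All 9 fibroblast markers passed the filter on low signal (summed signal 43061 to 59185 in wild type and 59337 to 68597 in PKBa-/- arrays). Of the marker lists of epithelium, endothelium, macrophages and blood, muscle and adipocytes, 1 gene each passed that filter. The dimmest genes were Cdh1 of epithelium (mean 14.2), Ptprc of blood cells (17.3), Myod1 of muscle (58.7) and Adipoq of adipocytes (19.8). The brightest genes of the same lists were Cldn3 (282), Csf1r (214), Des (211) and Cebpa (236). The 4 endothelial markers summed to 521 to 1686 in wild type and 289 to 490 in PKBa-/- arrays, led by Kdr.

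At time 6 in the PKBa-/- cells 34 of 40 genes rose and none fell, where 8.59% of all 7436 genes tested rose and 9.78% fell (limma; no member fell at an unadjusted p under 0.05 either). All 40 lay above 0 in both replicate sets, with a median of 0.69 (0.73 in replicates 1 and 2, 0.65 in replicates 3 and 4) against -0.01 over all genes. In wild type 7 of 40 rose at time 6, where 4.22% of all genes did; 35 lay above 0, with a median of 0.27 (0.27 in each set). With the replicate set as a block within genotype, 19 of 40 rose in wild type (12.9% of all genes). In bulk RNA a change in the cells present and a change in RNA per cell cannot be told apart.

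**Figure D1:**
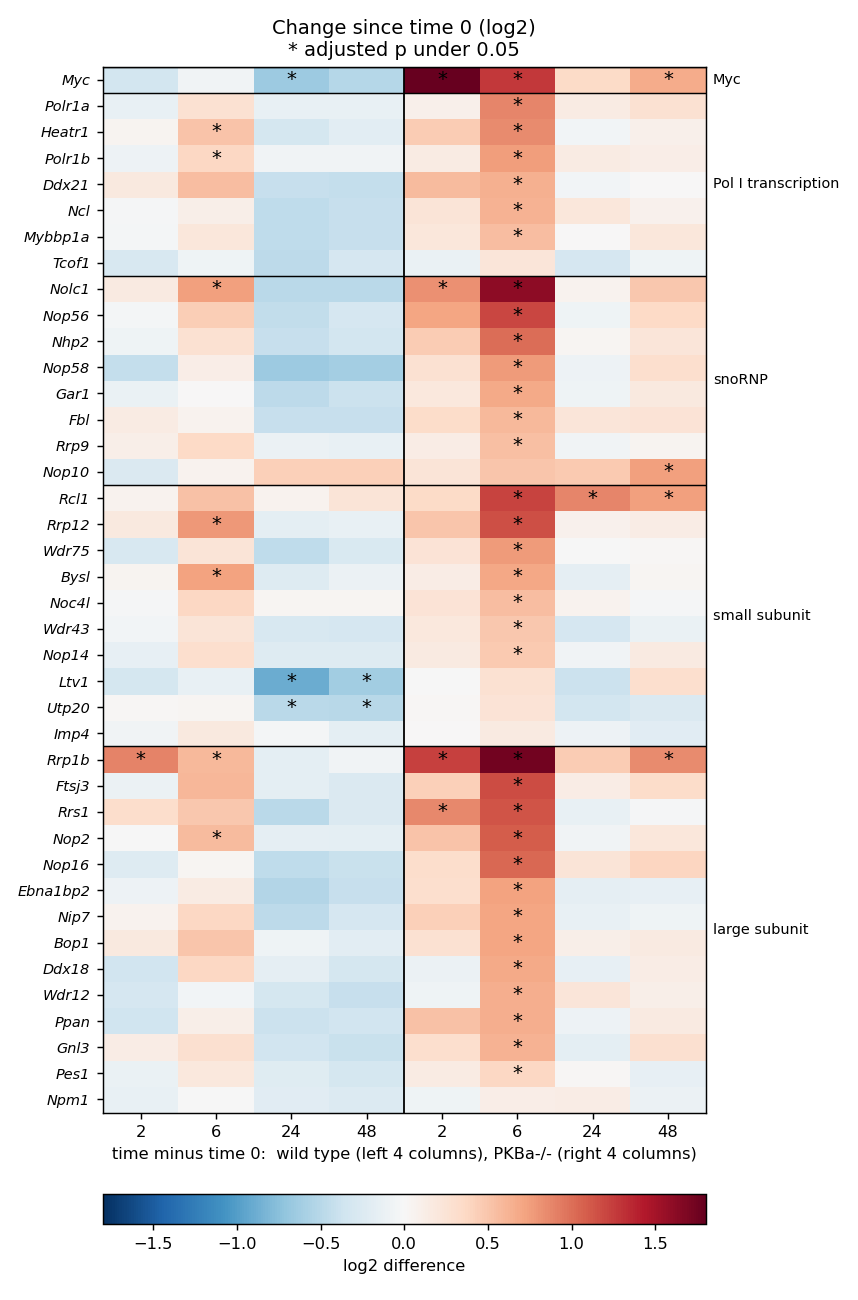
Log2 change since time 0 of the 40 genes (rows, grouped by role) at times 2, 6, 24 and 48 in wild type (left 4 columns) and PKBa-/- (right 4 columns); a star marks an adjusted p under 0.05. The PKBa-/- time 6 column holds 34 stars, and the wild type columns at times 24 and 48 are mostly below 0.

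Myc, which drives transcription of many growth genes, reached its highest signals at time 2 in PKBa-/-. In wild type its signal was 275, 269, 275 and 272 at time 0, 181 and 242 at time 2 and 245, 214, 289 and 299 at time 6. In PKBa-/- it was 240, 237, 224 and 247 at time 0, 948 and 912 at time 2 and 645, 555, 603 and 678 at time 6. The PKBa-/- arrays at times 2 and 6 lay above every wild type array, whereas at time 0 the PKBa-/- arrays all lay below the wild type ones. The change from time 0 to time 2 was 1.84 ± 0.19 (adjusted p = 0.00016) in PKBa-/-, 3.58-fold on the offset scale and 1.83 within replicates 1 and 2, and -0.34 ± 0.19 (adjusted p = 0.52) in wild type. At time 6 it was 1.28 ± 0.16 (adjusted p = 0.00037) in PKBa-/- and -0.06 ± 0.16 (adjusted p = 0.84) in wild type, so only the PKBa-/- value passed. Later signals were 279, 270, 329 and 372 at time 24 and 377, 410, 368 and 428 at time 48 in PKBa-/-. In wild type they were 139, 166, 189 and 153 and then 164, 139, 228 and 211. Thus at time 24 every wild type array was below its time 0 level (-0.66 ± 0.16, adjusted p = 0.031, which became -0.60, adjusted p = 0.058, without replicate 4 of that group), while at time 48 PKBa-/- was still above its own (0.67 ± 0.16, adjusted p = 0.024).

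**Figure D2:**
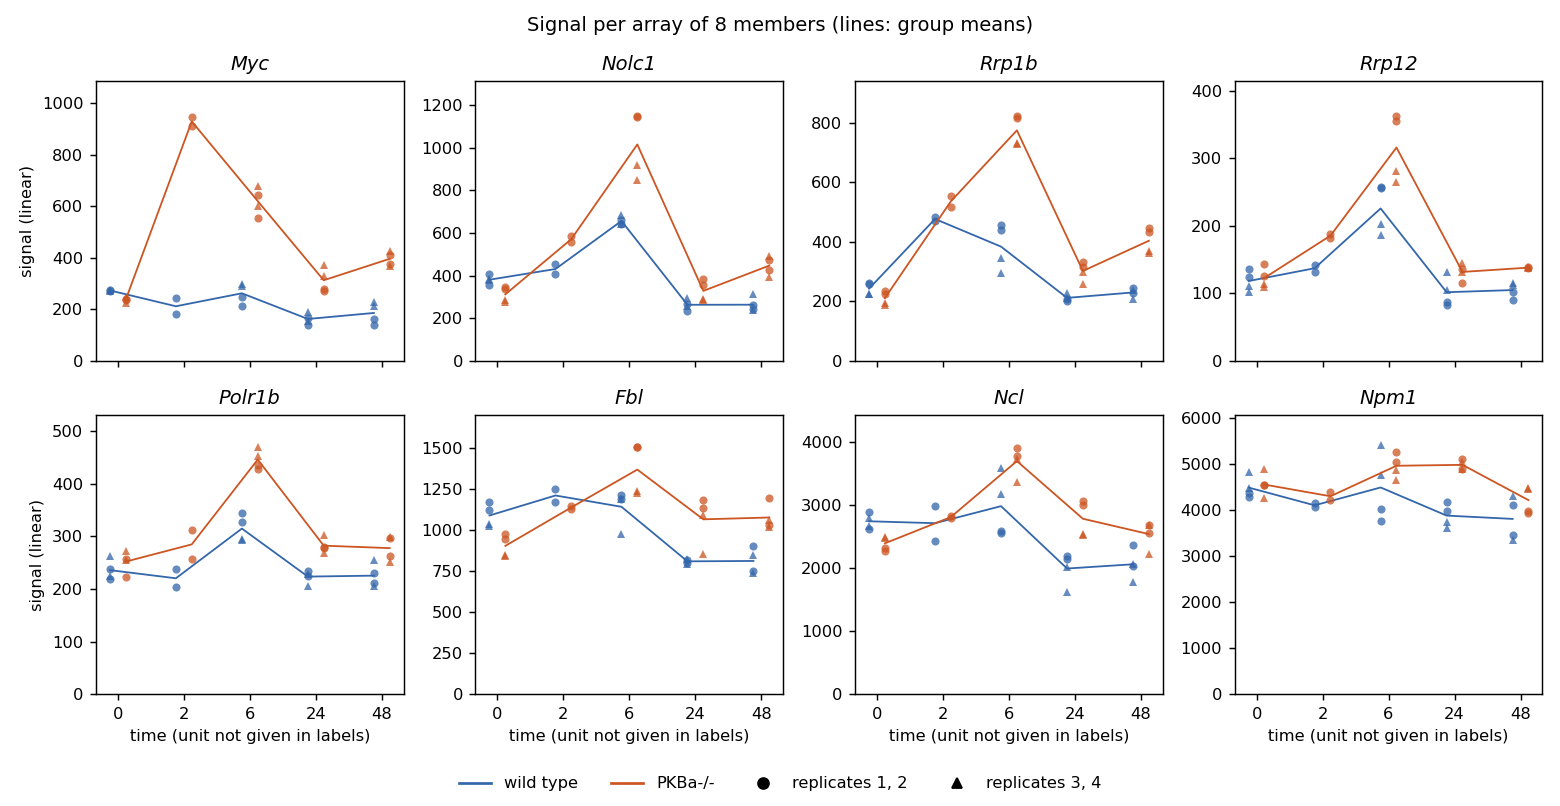
Signal (linear, axis from 0) of 8 members on each array against time, wild type in blue and PKBa-/- in orange, circles for replicates 1 and 2 and triangles for replicates 3 and 4; lines join group means and times are evenly spaced. Myc peaks at time 2 in PKBa-/- (948 and 912), Nolc1, Rrp1b and Rrp12 peak at time 6 in PKBa-/-, and Npm1 overlaps between times 0 and 6 in PKBa-/-.

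Among 7 genes of ribosomal DNA transcription, 6 rose at time 6 in PKBa-/- (median 0.64) and 2, Heatr1 and Polr1b, in wild type (median 0.27). Polr1b, the second largest subunit of RNA polymerase I, gave 220, 237, 224 and 262 at time 0 and 344, 326, 293 and 295 at time 6 in wild type. In PKBa-/- it gave 257, 223, 255 and 272 and then 428, 434, 451 and 469. The 2 times did not overlap in either genotype, and the changes were 0.37 ± 0.10 (adjusted p = 0.034) and 0.75 ± 0.10 (adjusted p = 0.00055); without replicate 3 of wild type time 0 the former was 0.32 (adjusted p = 0.068). Polr1a, the largest subunit, rose by 0.87 ± 0.13 (adjusted p = 0.0011) in PKBa-/- and did not pass in wild type, at 0.27 ± 0.13 (adjusted p = 0.22). Heatr1, a factor needed for precursor transcription and early processing, rose by 0.85 ± 0.15 and 0.51 ± 0.15. Mybbp1a, a nucleolar Myb-binding protein, rose by 0.56 ± 0.13 in PKBa-/- and read 0.20 ± 0.13 in wild type, which did not pass. Ncl, nucleolin, an abundant nucleolar RNA-binding protein, gave 2323, 2272, 2490 and 2480 at time 0 and 3906, 3779, 3364 and 3721 at time 6 in PKBa-/-, all arrays higher at time 6 (0.62 ± 0.15, adjusted p = 0.013). In wild type Ncl was 2885, 2623, 2790 and 2662 and then 2560, 2594, 3590 and 3173, where replicates 1 and 2 lay below the time 0 arrays and replicates 3 and 4 above them. Tcof1, the treacle protein that helps RNA polymerase I, did not pass in either genotype at time 6 (0.22 ± 0.14 in PKBa-/-, -0.08 ± 0.14 in wild type). Ddx21, a helicase of the same step, rose by 0.64 ± 0.20 (adjusted p = 0.039) in PKBa-/- (0.59, adjusted p = 0.053, without replicate 2 of PKBa-/- time 0). In wild type its 0.56 ± 0.20 did not pass, with arrays at 409, 377, 401 and 396 and then 508, 550, 644 and 704.

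Of 8 snoRNP genes, 7 rose at time 6 in PKBa-/- (median 0.73), and Nolc1 did in wild type (median 0.20). Nolc1 encodes Nopp140, a chaperone of snoRNPs. Its signals in PKBa-/- were 336, 347, 285 and 277 at time 0, 559 and 584 at time 2 and 1143, 1149, 851 and 922 at time 6. They were 382, 355, 283 and 291 at time 24 and 427, 472, 395 and 493 at time 48. In wild type Nolc1 read 406, 354, 383 and 379 at time 0, 407 and 454 at time 2 and 661, 640, 682 and 643 at time 6. Later it read 234, 264, 259 and 293 at time 24 and 260, 241, 312 and 238 at time 48. Time 6 stood above every other time in both genotypes, and PKBa-/- at time 6 stood above wild type. The rise was 1.60 ± 0.14 (adjusted p = 4.1e-05), or 3.04-fold, in PKBa-/- and 0.74 ± 0.14 (adjusted p = 0.0073), or 1.67-fold, in wild type. Fbl encodes fibrillarin, the methyltransferase of box C/D snoRNPs. In PKBa-/- it gave 944, 979, 846 and 850 and then 1504, 1509, 1226 and 1238, without overlap (0.58 ± 0.13, adjusted p = 0.0095). In wild type it gave 1171, 1122, 1038 and 1029 and then 1217, 1190, 1190 and 974, with overlap (0.06 ± 0.13, adjusted p = 0.79). Its partners Nop56 (1.20 ± 0.15) and Nop58 (0.77 ± 0.19) also rose in PKBa-/-, as did Rrp9 of the U3 snoRNP (0.54 ± 0.13). Of the box H/ACA proteins, which guide pseudouridine formation, Nhp2 rose by 1.01 ± 0.20 and Gar1 by 0.69 ± 0.13. The other box H/ACA member, Nop10, followed another course. Its signals in wild type were 2508, 2343, 2876 and 2689 at time 0 and 3154, 3601, 3508 and 3870 at time 24, all higher at time 24, though 0.44 ± 0.17 (adjusted p = 0.18) did not pass. In PKBa-/- Nop10 went from 2042, 2566, 1591 and 1807 to 3495, 3663, 3104 and 3020 at time 48 (0.74 ± 0.17, adjusted p = 0.021).

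Of 10 small subunit factors, 7 rose at time 6 in PKBa-/- (median 0.52) and Rrp12 and Bysl did in wild type (median 0.27). Rrp12, a HEAT-repeat protein in export and maturation of pre-ribosomes, gave 124, 135, 102 and 111 at time 0 and 258, 255, 203 and 186 at time 6 in wild type (0.77 ± 0.17, adjusted p = 0.012). In PKBa-/- it went from 143, 125, 109 and 114 to 363, 355, 281 and 265 (1.16 ± 0.17, adjusted p = 0.0009). Both changes were free of overlap, and the PKBa-/- arrays at time 6 were the highest of all. Bysl, bystin, had rises of like size in both genotypes. Its arrays went from 419, 418, 392 and 391 to 769, 732, 621 and 656 in wild type (0.73 ± 0.16, adjusted p = 0.013). In PKBa-/- they went from 519, 446, 445 and 527 to 819, 826, 797 and 772 (0.70 ± 0.16, adjusted p = 0.011). Rcl1, a factor of early precursor cleavage, was also above time 0 later. PKBa-/- arrays read 338, 325, 257 and 290 at time 0 and 940, 853, 595 and 632 at time 6. They read 700, 632, 525 and 481 at time 24 and 645, 564, 455 and 459 at time 48, and every later array was above every time 0 array. Its changes there were 1.22 ± 0.21 (adjusted p = 0.0022), 0.87 ± 0.21 (adjusted p = 0.028) and 0.74 ± 0.21 (adjusted p = 0.049), and it was the 1 member of 40 that rose at time 24 (2.8% of all genes did; 4 members, and 10.2% of all genes, with the replicate set as a block within genotype). The other small subunit genes that rose at time 6 in PKBa-/- were Wdr75 (0.77 ± 0.14), Noc4l (0.55 ± 0.15), Wdr43 (0.48 ± 0.14) and Nop14 (0.47 ± 0.12). Imp4, a U3 snoRNP protein, Utp20, a scaffold of the early small subunit particle, and Ltv1, an export and maturation factor of the small subunit, did not pass at time 6 in PKBa-/- (0.17 ± 0.11, 0.24 ± 0.12 and 0.27 ± 0.14).

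Of 14 large subunit factors, 13 rose at time 6 in PKBa-/- (median 0.71) and Rrp1b and Nop2 did in wild type (median 0.33). Rrp1b, a nucleolar protein of late precursor processing, gave 235, 222, 195 and 188 at time 0, 517 and 553 at time 2 and 822, 814, 726 and 732 at time 6 in PKBa-/-. It gave 332, 316, 258 and 299 at time 24 and 434, 446, 362 and 369 at time 48. In wild type Rrp1b read 256, 261, 225 and 225 at time 0, 469 and 483 at time 2 and 457, 438, 344 and 293 at time 6. It read 205, 200, 226 and 211 at time 24 and 228, 245, 236 and 208 at time 48. Within replicates 1 and 2, the only ones at time 2, wild type was nearly level between time 2 (469 and 483) and time 6 (457 and 438). All PKBa-/- arrays at time 6 lay above those at time 2, and at time 48 PKBa-/- still lay above its time 0 arrays. Times 2 and 6 were not compared in a fit. At time 2 Rrp1b rose in both genotypes, by 0.89 ± 0.19 (adjusted p = 0.03) in wild type (1 of 40 members, 1.3% of all genes) and 1.23 ± 0.19 (adjusted p = 0.0037) in PKBa-/- (0.81 and 1.12 within replicates 1 and 2). At time 6 its rises were 0.58 ± 0.16 (adjusted p = 0.034) and 1.74 ± 0.16 (adjusted p = 4.1e-05). Nop2, an rRNA methyltransferase, rose by 0.58 ± 0.16 and 1.08 ± 0.16. Nop16 did not pass in wild type, with arrays going from 302, 274, 286 and 256 to 317, 316, 277 and 242 (0.04 ± 0.17, adjusted p = 0.92). It rose in PKBa-/- from 152, 178, 137 and 144 to 361, 363, 320 and 339 (1.04 ± 0.17, adjusted p = 0.0017); on this probe set its PKBa-/- level at time 0 was the lower one. Rrs1, which brings the 5S particle into the large subunit, rose by 1.13 ± 0.16 in PKBa-/-, and Ftsj3, a methyltransferase, by 1.17 ± 0.19. The partners Pes1, Bop1 and Wdr12, which act as a complex on the large subunit, rose by 0.38 ± 0.11, 0.71 ± 0.15 and 0.66 ± 0.13. Ebna1bp2, Nip7, Ddx18, Ppan and Gnl3 rose by between 0.63 and 0.72. Npm1, nucleophosmin, an abundant nucleolar chaperone, was the exception: 4535, 4532, 4251 and 4881 at time 0 and 5262, 5050, 4867 and 4653 at time 6 in PKBa-/-, which overlapped (0.12 ± 0.13, adjusted p = 0.6).

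At time 2, which holds replicates 1 and 2 alone, 4 of 40 genes rose in PKBa-/- (2.15% of all genes): Myc, Rrp1b, Rrs1 and Nolc1. The median of the members was 0.26, and 0.22 within replicates 1 and 2, against -0.05 in wild type.

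After time 6 most of the genes fell in both genotypes. From time 6 to time 24, 29 of 40 fell in wild type (4.38% of all genes fell), with a median of -0.57, and 34 of 40 in PKBa-/- (9.2% of all), with a median of -0.75. These falls share the time 6 arrays with the rises above. The groups did not overlap for 34 members in wild type (13.3% of all genes) and 36 in PKBa-/- (18.3%). Nolc1 fell most in each genotype, with a difference of -1.23 ± 0.14 (adjusted p = 0.0011) in wild type and -1.54 ± 0.14 (adjusted p = 8.0e-05) in PKBa-/-. Npm1 (-0.20 ± 0.13 and 0.01 ± 0.13) and Nop10 (0.38 ± 0.17 and -0.02 ± 0.17) did not pass in either. Between times 24 and 48 limma called 0 members in either genotype. In wild type 0% of all genes passed, and no member had an unadjusted p under 0.05. In PKBa-/- 0.0403% of all genes rose and 0.0941% fell, and 6 members were higher at an unadjusted p under 0.05. With the replicate set as a block within genotype, 3 of 40 rose from time 24 to time 48 in PKBa-/- (2.9% of all genes).

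Against time 0, the later medians lay below 0 in wild type and near or above 0 in PKBa-/-. In wild type the median against time 0 was -0.33 at time 24 (-0.44 in replicates 1 and 2, -0.18 in replicates 3 and 4) and -0.31 at time 48. Of 40 members, 3 fell at time 24 (3.46% of all genes) and 2 at time 48 (3.89%); 19 and 20 fell with the replicate set as a block within genotype (13.1% and 15.5% of all genes). Ltv1 fell most, from 702, 596, 493 and 482 at time 0 to 286, 262, 298 and 312 at time 24 and 405, 315, 359 and 337 at time 48, with no later array inside the time 0 range (-0.89 ± 0.14, adjusted p = 0.0038 and -0.63 ± 0.14, adjusted p = 0.02). Utp20 went from 403, 425, 334 and 358 to 261, 264, 283 and 245 and 287, 274, 252 and 226 (-0.48 ± 0.12, adjusted p = 0.031 and -0.50 ± 0.12, adjusted p = 0.024), again without overlap. The third at time 24 was Myc; without replicate 4 of wild type time 24, 1 member passed. In PKBa-/- the median was -0.03 at time 24 and 0.15 at time 48, where 4 of 40 rose (3.07% of all genes; 8, and 12.7%, with the block): Rrp1b (0.84 ± 0.16), Nop10, Rcl1 and Myc.

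Set against each other at the same time, the members had a median difference below 0 at first and above 0 later. At time 0 the members were on the whole lower in PKBa-/-, with a median difference of -0.18 (0.03 over all genes) and 28 of 40 below 0 in both sets; 3 of them passed as lower (8.34% of all genes) and 1 as higher (6.48%). The lower ones were Nop16 (-0.76 ± 0.17, adjusted p = 0.0096; its dimmer probe set had the opposite sign), Ltv1 (-0.51 ± 0.14, adjusted p = 0.029) and Gar1 (-0.47 ± 0.13, adjusted p = 0.033), and Imp4 was higher (0.36 ± 0.11, adjusted p = 0.04). At time 2 the median was 0.14 and Myc alone passed (2.00 ± 0.23, adjusted p = 0.00015; 2.97% of all genes were higher; 2 members without replicate 1 of PKBa-/- time 2). At time 6 the median was 0.28 (0.39 and 0.23 in the replicate sets), and 10 of 40 were higher and none lower, where 8.51% of all genes were higher and 8.02% lower; no member was lower at an unadjusted p under 0.05 in limma. At time 24 the median was 0.14 (0.29 and 0.03), and 6 of 40 were higher against 9.79% of all genes, or 11 (15.4%) with the replicate set as a block. At time 48 it was 0.30 (0.35 and 0.23), and 10 of 40 were higher against 12.4%; leaving out replicate 2 of PKBa-/- time 24 left 5, or 12.5% of members against 11.2% of all genes, and leaving out replicate 2 of PKBa-/- time 48 left 6, or 15.0% against 12.1%. With all arrays and no block, the counts at times 0 and 2 are not above the share of all genes. The count at time 6 is above the share of all genes and that at time 24 is nearer to it, while that at time 48 is above it with all arrays and near it without either of those arrays.

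**Figure D3:**
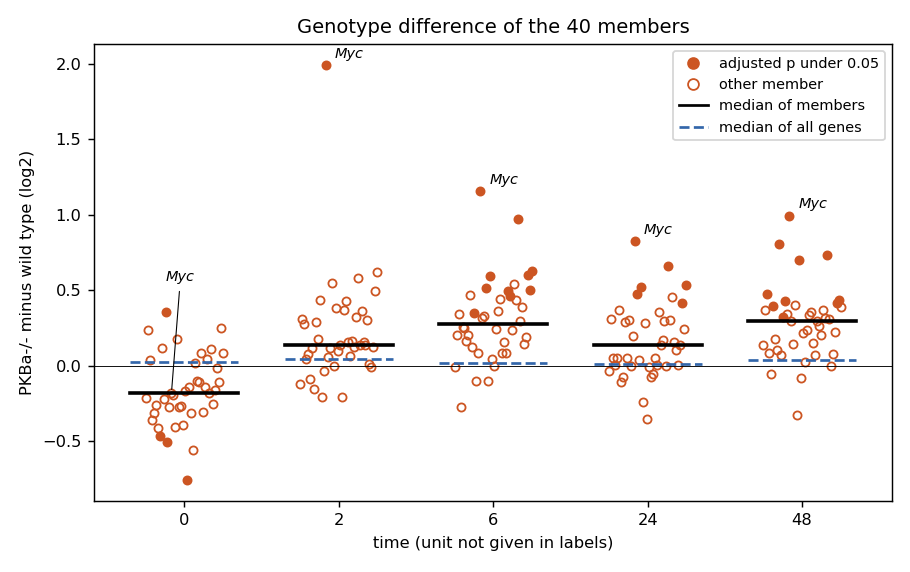
Log2 difference, PKBa-/- minus wild type, of each of the 40 genes at each time (points in alphabetical order within a time, filled at an adjusted p under 0.05), with the median of the members (black line) and of all genes tested (dashed blue line). The members' median is -0.18 at time 0 and 0.28 and 0.30 at times 6 and 48.

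Myc differed most at times 2, 6, 24 and 48 (1.16 ± 0.16, adjusted p = 0.00033 at time 6, 0.83 ± 0.16, adjusted p = 0.003 at time 24, 1.00 ± 0.16, adjusted p = 0.00072 at time 48). At time 6 it was followed by Rrp1b (0.98 ± 0.16, adjusted p = 0.0011). Next came Wdr75, a component of the early small subunit complex (0.63 ± 0.14, adjusted p = 0.0076), and Wdr12, a partner of Pes1 and Bop1 in large subunit assembly (0.60 ± 0.13, adjusted p = 0.0079). The other passing genes were Nolc1, Nip7, Wdr43, Polr1a, Polr1b and Imp4. Time 48 was led, after Myc, by Gnl3, the nucleolar GTPase nucleostemin: its arrays gave 503, 526, 432 and 436 in wild type and 830, 869, 924 and 790 in PKBa-/- with no overlap (0.81 ± 0.17, adjusted p = 0.005). On its brightest probe set Imp4 differed by 0.36 ± 0.11 at time 0, 0.35 ± 0.11 at time 6 and 0.33 ± 0.11 at time 48, but its other probe set had the opposite sign at times 2, 24 and 48. The brightest one gave wild type arrays of 225, 223, 222 and 223 against 266, 302, 280 and 337 in PKBa-/- at time 0. Ddx21 and Noc4l, a small subunit factor, had the lowest values at time 6 (-0.27 ± 0.20 and -0.10 ± 0.15), neither of which passed. Averaged over the 5 times, 17 of 40 were higher and none lower in limma (1 lower at an unadjusted p under 0.05), where 26.5% of all genes were higher and 20.9% lower.

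The test of whether the change itself differed between the genotypes was passed by few genes. A positive difference means a more upward change in PKBa-/-, which can be a larger rise, a smaller fall or a rise against a fall. Over all genes, 0.121% passed with a positive difference at time 2, 0.215% at time 6, 0.256% at time 24 and 0.471% at time 48. Of the members, 1, 2, 0 and 3 did. At time 24, 11 members had a positive difference at an unadjusted p under 0.05 in limma. The members' median change there was -0.33 in wild type and -0.03 in PKBa-/-. At time 2 the member that passed was Myc (2.18 ± 0.28, adjusted p = 0.0038, 2.16 within replicates 1 and 2). At time 6 it was Myc (1.34 ± 0.23, adjusted p = 0.023) and Rrp1b (1.15 ± 0.22, adjusted p = 0.042, with 0.98 and 1.33 in the replicate sets). Rrp1b did not pass without any one of 5 arrays: replicates 2 and 3 of wild type time 6, replicates 2 and 4 of PKBa-/- time 24 and replicate 3 of wild type time 48, with adjusted p between 0.051 and 0.054, which left 1 member. At time 48 it was Myc (1.18 ± 0.23, adjusted p = 0.025), Nolc1 (0.97 ± 0.21, adjusted p = 0.044) and Ltv1 (0.93 ± 0.20, adjusted p = 0.044), and 1 gene was left without replicate 2 or 4 of wild type time 48, replicate 2 or 4 of PKBa-/- time 48, or replicate 2 of PKBa-/- time 24. The median of the members' differences was 0.42 at time 6 (0.41 and 0.44 in the sets) and 0.39 at time 48 (0.40 and 0.43), against 0.01 over all genes at time 6. With the replicate set as a block within genotype, 16 of 40 passed at time 6 (3.79% of all genes) and 14 at time 48 (7.1%). So 34 rises in PKBa-/- beside 7 in wild type do not by themselves show that each gene responded differently.

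**Figure D4:**
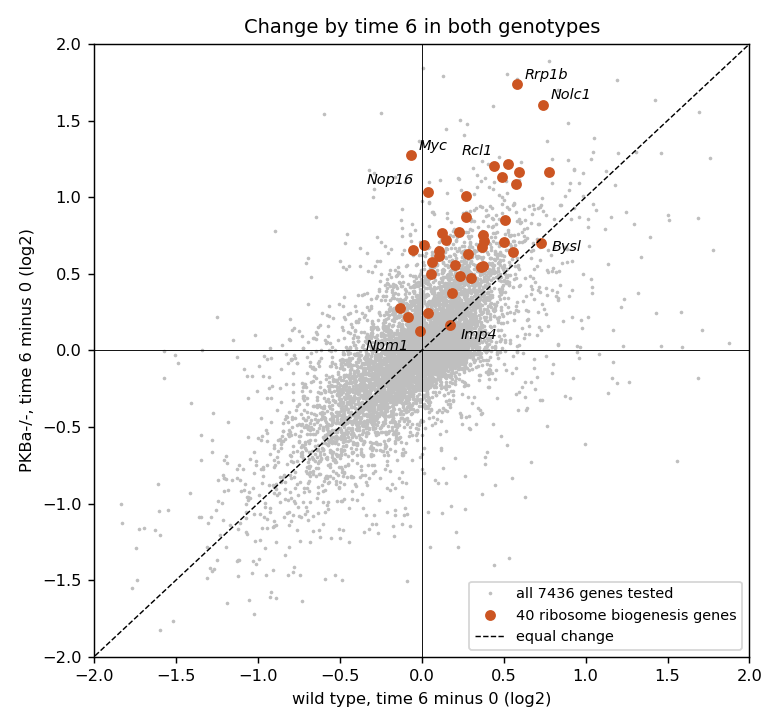
Log2 change from time 0 to time 6 in wild type (x) and PKBa-/- (y) for all 7436 genes tested (grey) and the 40 members (orange); the dashed line marks equal change and genes beyond 2 on either axis are not drawn. All 40 members lie above 0 on the y axis, and Bysl and Imp4 lie near the dashed line.

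Members on several probe sets were checked for agreement. At time 6 in PKBa-/- all 72 probe sets lay above 0, and 50 of the 62 tested rose. In wild type 61 of 72 lay above 0, and probe sets of Ncl, Nop10 and Wdr12 had opposite signs. The difference between genotypes had opposite signs on probe sets of Ddx21, Ebna1bp2 and Noc4l at time 6, and of Ddx21, Ebna1bp2, Heatr1, Imp4 and Npm1 at time 48. At time 0 the same held for Bysl, Ddx18, Ebna1bp2, Heatr1, Nop16, Npm1, Polr1a and Wdr43. Of the 32 probe sets that were not the brightest of their gene, 9 had the opposite sign at time 0, 9 at time 2, 3 at time 6, 10 at time 24 and 5 at time 48. The direction of the genotype difference is uncertain for these genes at these times. Sizes also moved with the processing. Over the fits run, the rise of Rrp1b at time 6 in PKBa-/- ran from 1.27 to 1.81 and that of Nolc1 from 1.52 to 1.66. Rrp1b was thus not the largest in every fit. Its genotype difference at time 6 ran from 0.66 to 1.12 and its difference of change from 0.75 to 1.33.

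A wider list of ribosome biogenesis factors, with 88 other tested genes, was followed beside the members. At time 6, 38 of 88 rose and 1 fell in PKBa-/- (median 0.40), where 8.59% of all genes rose and 9.78% fell. In wild type 6 of 88 rose (median 0.14), where 4.22% of all genes did. With the replicate set as a block within genotype, 57 rose and 4 fell in PKBa-/- (18.1% and 18.9% of all genes), and 27 rose and 5 fell in wild type (12.9% and 19.3%). By role, 18 of 35 large subunit factors, 13 of 36 small subunit factors, 5 of 11 rRNA trimming genes and 2 of 6 RNA polymerase I genes rose in PKBa-/-; the block took the small subunit count to 22. Nifk, a partner of Ki-67 in the nucleolus (1.01 ± 0.17, adjusted p = 0.0019), Utp6 (0.93 ± 0.25, adjusted p = 0.022) and Pno1 (0.84 ± 0.16, adjusted p = 0.0043) led, and Sbds, which helps remove eIF6 from the large subunit, fell (-0.44 ± 0.13, adjusted p = 0.039). In wild type Nop9 (0.61 ± 0.11, adjusted p = 0.0053) and Ddx49 (0.59 ± 0.11, adjusted p = 0.005) rose. From time 6 to time 24, 19 of 88 fell in wild type, where 4.38% of all genes did (42, and 13.4% of all genes, with the block). In PKBa-/- 38 of 88 fell, where 9.2% of all genes did. Between genotypes, 10 of 88 were higher and 2 lower in PKBa-/- at time 6, where 8.51% of all genes were higher and 8.02% lower. The count of 10 was near that share. At time 48, 5 were higher and 8 lower, where 12.4% of all genes were higher and 10.8% lower. That balance turned to 16 higher and 8 lower with the replicate set as a block (19.7% and 14.6% of all genes). With the block within genotype it was 29 and 10. No share of all genes is given for that last fit, so its shift is not read as particular to this list. At time 48 C1d, an exosome cofactor, was highest (1.07 ± 0.20, adjusted p = 0.002) and Pelp1 lowest (-0.87 ± 0.17, adjusted p = 0.0031).

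Of 26 Myc targets outside ribosome assembly, 9 rose at time 6 in PKBa-/- (median 0.36; 8.59% of all genes rose), and 2 rose and 1 fell in wild type (median 0.11; 4.22% and 7.69% of all genes). With the replicate set as a block within genotype, 14 of 26 rose in PKBa-/- (18.1% of all genes). In wild type 5 rose and 5 fell (12.9% and 19.3% of all genes), the falls near the share of all genes. Srm, spermidine synthase, rose in both (1.18 ± 0.19, adjusted p = 0.0015 in PKBa-/-, 0.93 ± 0.19, adjusted p = 0.0084 in wild type), as did Cad, of pyrimidine synthesis (0.96 ± 0.13 and 0.56 ± 0.13). Odc1, ornithine decarboxylase, rose in PKBa-/- (1.05 ± 0.16, adjusted p = 0.0012). At time 24 in wild type 6 of 26 fell (3.46% of all genes; 13, and 13.1%, with the block), among them the amino acid transporter Slc7a5 (-1.19 ± 0.20, adjusted p = 0.0052) and the mitochondrial one-carbon enzymes Mthfd2 and Shmt2 (-1.19 ± 0.26 and -1.17 ± 0.27). Of 9 genes of the Myc network, 2 fell at time 6 in PKBa-/- (9.78% of all genes) and 1 in wild type (7.69%), the latter near the share of all genes; Mxi1, which competes with Myc for Max, fell in both (-0.45 ± 0.12, adjusted p = 0.023 and -0.49 ± 0.12, adjusted p = 0.024).

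Markers of dividing cells differed over the same times. The summed signal of 7 markers averaged 7340 at time 0 and 9823 at time 6 in wild type, and 5224 and 8068 in PKBa-/-, and at time 48 it was 6767 in wild type and 9630 in PKBa-/-. At time 6 in PKBa-/- 3 of 7 rose and 1 fell (median 0.53), where 8.59% of all genes rose and 9.78% fell. With the block within genotype 5 rose (18.1% of all genes). At time 48, 3 of 7 were higher in PKBa-/- than in wild type, where 12.4% of all genes were. The sum leaned on its brightest gene, Pcna (mean signal 3214), while the dimmest, Mki67, had a mean of 419. Over arrays the sum ran from 6064 to 11409 in wild type and from 5003 to 10128 in PKBa-/-. Their part in the changes of the ribosome biogenesis genes was not tested.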

How the data were processed

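The authors deposited intensity values, linear and summarised by probe set; the summary and normalization methods are not stated in the labels or headers used here. Per the labels' protocols, biotinylated cRNA was hybridised. Probe sets with 1 platform gene symbol (20380 of 22690) were used, the brightest per gene. Values were log2(signal + 32), and the 40% of genes with the lowest means were not tested, which left 7436. The number of arrays limits the precision.

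A model of 10 group means was fitted by limma 3.58.1 (R 4.3.3) to 18 pair means (replicates 1 with 2, 3 with 4) and gave moderated two-sided tests with 8 residual and 4.24 prior degrees of freedom, adjusted by Benjamini-Hochberg within each comparison. Comparisons were later times against time 0, times 24 against 6 and 48 against 24, the genotypes at each time and averaged over times, and the difference of changes. The procedure was tested on simulated data. The members and lists were chosen with earlier results of these data known. Members may all be named. Array values follow the rule of Myc, Nolc1, Rrp12, Ncl, Npm1, Fbl, Polr1b and the 3 highest and 3 lowest members in the main comparisons; of the other lists up to 3 at each end were named.

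Whether replicate numbers pair arrays across groups was checked by the correlation of deviations from group means. Every pair exceeded 0.1 between times 0, 6, 24 and 48 within a genotype, except PKBa-/- time 0 with 24 (lowest 0.0329), and between genotypes at times 24 and 48; it did not for time 2 or between genotypes at times 0 and 6. Where it did, fits with the replicate set as a block are given where they move a count of members, or a count of another list at times 6, 24 and 48, over 1.5 times. Alternatives were other offsets and filters, quantile normalization, probe sets averaged or singly, arrays as separate samples, blocks, each replicate set alone and leaving out each array; added after seeing the data was a fit without time 2.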

Additional observations from a re-analysis of the deposited data

Results flagged for a closer look

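In 176 groups of 4 arrays, 22 members in 8 groups, 5 arrays stood apart from the other 3 by Dixon's criterion. For 4 independent arrays chance gives about 1 in 20. These arrays came in close pairs, so that rate cannot be set against the 5 found. At time 6 in PKBa-/- Tcof1 read 310 in replicate 1 (others 247 to 258) and Ddx21 read 537 in replicate 3 (others 469 to 478). In wild type Bysl read 430 in replicate 4 at time 48 (others 352 to 364), Nop16 read 216 in replicate 1 at time 24 (others 187 to 191) and Fbl read 974 in replicate 4 at time 6 (others 1190 to 1217).

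The change since time 0 was more upward in PKBa-/- than in wild type for Myc at time 2 (log2 difference 2.18, adjusted p = 0.0038 in limma, replicates 1 and 2 alone). It was so too at time 6 (1.34, adjusted p = 0.023, 1.44 and 1.24 in the replicate sets) and time 48 (1.18, adjusted p = 0.025, 1.39 and 0.97). The same held for Rrp1b at time 6 (1.15, adjusted p = 0.042) and, at time 48, for Nolc1 (0.97, adjusted p = 0.044) and Ltv1 (0.93, adjusted p = 0.044).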

How the results depend on the processing

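Counts are members that passed. The share of all genes that passed under the same fit is not given beside them here. A larger count is therefore not read as a stronger result about the members. In simulated data with 200 changed genes, arrays as separate samples gave 352 false calls, and pair means gave 9. That simulation drew the deviations of each pair independently in every group. In the data they were shared between times 0, 6, 24 and 48 within a genotype (median r = 0.51). The simulated counts are therefore no estimate of the false calls in these data. The 34 rises at time 6 in PKBa-/- and the falls from time 6 to time 24 (29 in wild type, 34 in PKBa-/-) stayed within 1.5 times under every alternative run. No value of a named gene that passed took the other sign under any alternative; 14 of the 67 such values, none of which passed, did so under at least 1, among them Ncl and Myc at time 6 and Rcl1 at time 24 in wild type with replicates 1 and 2 or 3 and 4 alone. Offsets of 16 or 64, an intensity trend, the stricter filter on low signal and leaving out time 2 moved no count over 1.5 times. The counts that did move are given as changes since time 0 (lower in wild type at times 2, 24 and 48 and in PKBa-/- at time 24, higher otherwise), genotype differences (lower at time 0, higher otherwise) and differences of change (higher). Why they moved was not tested, and the fits also differ in sample size and degrees of freedom.

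With arrays as separate samples, wild type gave 2, 20, 25 and 24 at times 2, 6, 24 and 48, PKBa-/- 12, 4 and 10 at times 2, 24 and 48, the genotype differences 14, 11, 23, 15 and 25 at times 0, 2, 6, 24 and 48, and the differences of change 4, 18, 11 and 19 at times 2, 6, 24 and 48. With the replicate number as a block as well, these were 5, 24, 25 and 26, then 12, 4 and 12, then 17, 12, 24, 17 and 25, then 6, 22, 14 and 23. Replicates 1 and 2 alone gave 8, 25, 33 and 32, then 19, 8 and 9, then 12, 15, 29, 28 and 26 with 33 averaged over times, then 11, 27, 25 and 26; arrays of a pair are no independent samples there. Replicates 3 and 4 alone gave 20, 17 and 19 in wild type at times 6, 24 and 48, 2 and 13 in PKBa-/- at times 24 and 48, 18, 16 and 17 for the genotype difference at times 0, 6 and 48, and 16, 7 and 22 for the differences of change at times 6, 24 and 48.

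On pair means with the replicate set as a block, the counts were 12, 13 and 9 in wild type at times 6, 24 and 48, 1 in PKBa-/- at time 24, 2 and 11 for the genotype difference at times 2 and 24, and 7, 2 and 8 for the differences of change at times 6, 24 and 48. With that block within genotype they were 19, 19 and 20, then 7, 3 and 8 in PKBa-/- at times 2, 24 and 48, then 14, 4, 19, 12 and 18 at times 0, 2, 6, 24 and 48, then 16, 8 and 14. In the other direction the block within genotype gave 4 higher in PKBa-/- at time 24 (1 without it), 3 lower on average over times, and 1 each for higher in wild type at times 24 and 48 and from time 6 to 24 and for lower in PKBa-/- than wild type at times 24 and 48 (0 without it). From time 24 to 48 in PKBa-/- it gave 3 higher. The block common to both genotypes gave 2 higher in PKBa-/- at time 24, 2 lower on average over times and 1 higher in PKBa-/- from time 24 to 48, and neither block moved another count of members over 1.5 times.

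Quantile normalization gave 14 and 8 in wild type at times 6 and 24. It moved the share of higher among all genes called from 35.4% to 47.5% in wild type at time 6, from 35.3% to 46.7% at time 48 and from 63.5% to 51.9% in PKBa-/- at time 2. The mean of all probe sets gave 5 in wild type at time 24 and 2 for the genotype difference at time 2. Without a filter, 1 gene passed for the difference of change at time 6 and 1 at time 48, and with every probe set by itself 1 at time 48.

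Leaving out each array in turn gave, in wild type, 0 to 0 at time 2, 6 to 9 at time 6, 1 to 4 at time 24, 2 to 3 at time 48 and 23 to 31 from time 6 to 24, and in PKBa-/- 4 to 5, 33 to 35, 0 to 0, 3 to 5 and 30 to 34. Genotype differences gave 2 to 3, 1 to 2, 9 to 11, 5 to 7 and 5 to 13 at the 5 times and 16 to 19 on average, and differences of change 1 to 1, 1 to 2, 0 to 0 and 1 to 3. Of 67 values for named genes, 8 of the 2412 left-out fits lost the call and 2 gained it; those gained were Nop10 at time 6 in PKBa-/- (0.58 and 0.50).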
